A study of Homo sapiens with 3 samples.

Results

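The genes described here encode 9 peptidyl-prolyl isomerases: the cyclophilins PPIA, PPIB, PPIC, PPIF, PPIG and PPIH and the FK506-binding proteins FKBP1A, FKBP3 and FKBP4. They were chosen by name, as the rows of these symbols in a gene count table with 17595 endogenous genes, and all 9 had counts in each library. The table holds 3 libraries of a single group, HEK293 cells, a human cell line derived from embryonic kidney and grown in DMEM with fetal calf serum, with no treatment in the labels. Each library was made from 1000 lysed cells, of which a part equal to 100 cells entered 18 cycles of PCR, and the tags were read at the 5′ ends of the RNAs. The libraries are named by the index of their column, 20, 21 and 23, since no label ties a column to a replicate number. With no second condition, genes were compared within each library, and the libraries with each other. Nothing in the labels says that separate cultures were used, so the variation between these 3 samples may be technical. No p-value here speaks for HEK293 cultures beyond these 3 samples.

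Prolyl isomerases turn the peptide bond before a proline between its cis and trans forms, a slow step in the folding of many proteins. Cyclophilins are the targets of the immunosuppressant cyclosporin A, and FKBPs bind FK506 and rapamycin. The families are spread over the cell. PPIA, FKBP1A and FKBP4 act in the cytosol, PPIB and PPIC in the endoplasmic reticulum (ER), PPIF in the mitochondrial matrix, and PPIG, PPIH and FKBP3 in the nucleus.

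Endogenous counts were 1330877 to 1545594 per library, so that 1 count equals 0.647 to 0.751 CPM, counts per 1000000 endogenous counts, and spiked control RNAs took 3.49% to 3.85% of all counts. Of 8 genes listed as markers of HEK293, 6 averaged at least 10 CPM, as did 7850 of all 17595 endogenous genes. The renal gene PAX2, also on the list, had 1 count in all libraries together. Of 10 markers of blood, liver, endothelium and fibroblasts, 2 were listed, with a summed level of 2.71 to 7.51 CPM.

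Tags of this assay begin near transcription start sites, so the promoters of members from each compartment are shown. The windows are the 130 bases before the start in RefSeq, written 5′ to 3′ on the strand of the gene (build GRCh38.p14, while the counts were made on hg19). Of the 9 members 7 had a window. Capitals mark the TATA box TATAAA, the CCAAT box, the GC box GGGCGG, the cyclic AMP response element TGACGTCA and the NRF1 motif, on both strands. The deposited counts are per gene and do not place a tag on these bases.
PPIA (cytosol), chr7:44796551-44796680, plus strand: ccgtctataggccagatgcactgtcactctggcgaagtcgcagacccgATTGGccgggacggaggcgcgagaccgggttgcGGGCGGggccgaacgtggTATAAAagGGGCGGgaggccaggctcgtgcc
FKBP1A (cytosol), chr20:1393055-1393184, minus strand: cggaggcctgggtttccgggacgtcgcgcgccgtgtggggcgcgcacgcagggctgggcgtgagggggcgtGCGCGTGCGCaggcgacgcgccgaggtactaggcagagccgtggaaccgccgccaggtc
PPIB (ER), chr15:64163023-64163152, minus strand: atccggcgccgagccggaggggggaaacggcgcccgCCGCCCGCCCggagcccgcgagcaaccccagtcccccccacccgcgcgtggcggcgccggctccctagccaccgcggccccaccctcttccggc
PPIF (mitochondria), chr10:79347339-79347468, plus strand: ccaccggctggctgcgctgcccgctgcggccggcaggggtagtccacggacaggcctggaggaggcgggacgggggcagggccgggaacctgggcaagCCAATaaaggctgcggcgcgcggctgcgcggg
FKBP3 (nucleus), chr14:45134482-45134611, minus strand: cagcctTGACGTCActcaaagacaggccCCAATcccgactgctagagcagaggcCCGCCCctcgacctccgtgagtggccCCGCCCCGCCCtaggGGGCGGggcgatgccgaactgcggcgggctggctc

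PPIA was the 1 member of the 7 with TATAAA, found 31 bases before its start, while 5.99% of all 35116 RefSeq windows of the same length held it. A CCAAT box stood in the windows of PPIA (on the opposite strand), PPIF and FKBP3, 3 of 7, against 21.5% of all windows. The GC box stood in 5 of 7, against 35.0%, with copies in PPIB and FKBP3 that overlap each other by some bases. TGACGTCA was found for FKBP3 alone, against 1.34% of all windows, and the NRF1 motif for FKBP1A alone, against 4.00%. The ETS motif CCGGAAGT, the ER stress element and the heat shock element had no match in the 7 windows, and were in 2.82%, 0.0484% and 0.228% of all windows. GC content was 67.7% for PPIA, 76.9% for FKBP1A, 82.3% for PPIB, 76.9% for PPIF and 71.5% for FKBP3, against a median of 60% over all windows. These matches describe letters and were not tied to the counts.

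The cytosolic isomerases carried most of the counts, and PPIA carried most of theirs. PPIA, cyclophilin A, is the main intracellular receptor of cyclosporin A and a folding catalyst of the cytosol. It had 3650, 3349 and 3913 counts in libraries 20, 21 and 23, or 2473, 2516 and 2532 CPM, with a mean of 2507 ± 30.3 CPM (SD, n = 3). The 3 libraries lay close together, and the gene ranked 64th of all listed genes. PPIA made up 58.9% ± 0.74 of the counts of the 9 members.

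FKBP1A encodes FKBP12, the small isomerase that carries FK506 to calcineurin and rapamycin to mTOR. It had 545, 550.0 and 509.8 CPM in libraries 20, 21 and 23, a mean of 535 ± 22.0 CPM (SD, n = 3), and was next after PPIA. FKBP4 encodes FKBP52, a larger isomerase that binds HSP90 through tetratricopeptide repeats and takes part in steroid receptor complexes. Its levels were 149, 171 and 170.2 CPM, a mean of 164 ± 12.5 CPM. Library 20 was the lowest of the 3 for FKBP4 and library 23 for FKBP1A.

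Of the ER members, PPIB was far above PPIC. PPIB, cyclophilin B, is a lumenal isomerase that joins P3H1 and CRTAP in the complex that modifies and folds collagen chains. It had 413, 394 and 382 CPM in libraries 20, 21 and 23, a mean of 396 ± 15.3 CPM (SD, n = 3). PPIC, cyclophilin C, had 52.9, 48.1 and 42.1 CPM, a mean of 47.7 ± 5.41 CPM, the lowest of the members, on 64 to 78 counts a library. The ranges of both genes did not overlap, and the log2 ratio of PPIB over PPIC was 3.05 ± 0.11, an 8.29-fold difference seen in 3 of 3 libraries. In both genes library 20 was the highest and library 23 the lowest, a difference that did not pass the test between libraries.

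PPIF, cyclophilin D, is the isomerase of the mitochondrial matrix and a regulator of the permeability transition pore. It had 241, 250.2 and 258 CPM in libraries 20, 21 and 23, a mean of 249.6 ± 8.81 CPM (SD, n = 3). It thus lay between the ER members, below PPIB and above PPIC.

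The nuclear members averaged below all other members except PPIC, and 2 of them lay together. Among genes with at least 10 pooled counts they stood at percentiles 82.6 to 88.5. PPIH, the cyclophilin of the U4/U6.U5 tri-snRNP of the spliceosome, had 130.1, 138 and 139.8 CPM in libraries 20, 21 and 23, a mean of 136 ± 5.05 CPM (SD, n = 3). FKBP3, or FKBP25, a nuclear isomerase that binds nucleic acids and histone deacetylases, had 126, 142 and 141 CPM, a mean of 136 ± 8.96 CPM. The values of both genes overlapped in the libraries. PPIG, a cyclophilin with a long arginine- and serine-rich tail that associates with splicing factors, had 108, 80.4 and 61.5 CPM, a mean of 83.2 ± 23.3 CPM. Its highest library, 20, stood at the top of a wide range, and no value of PPIG reached those of PPIH or FKBP3.

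**Figure D1:**
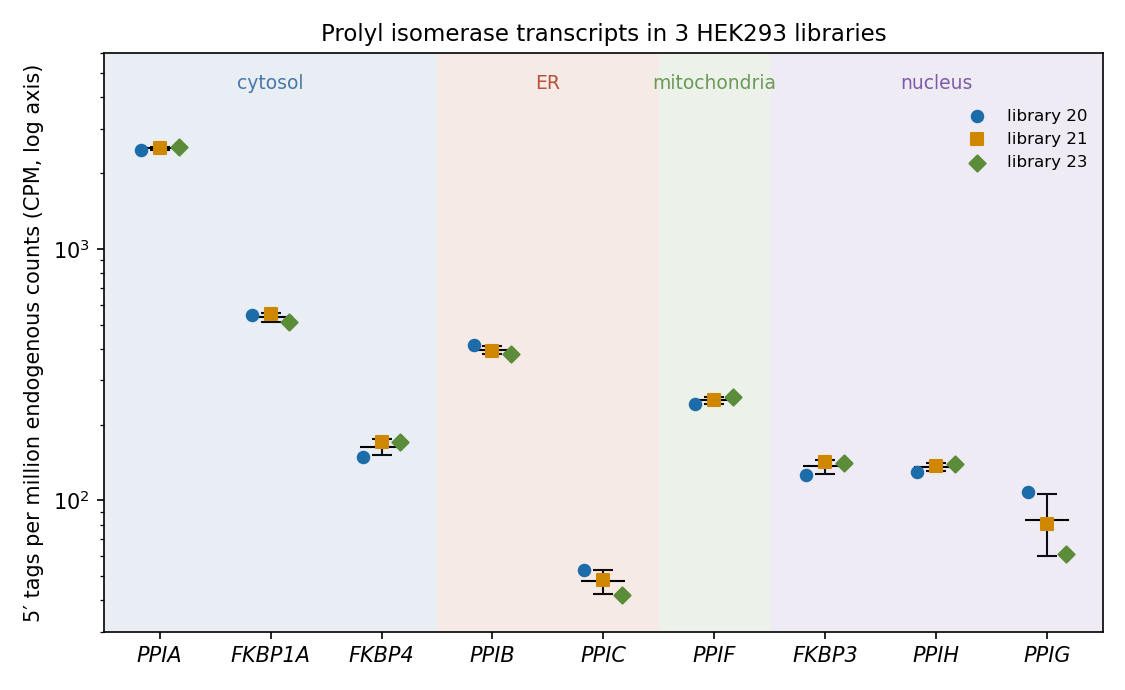
Level of each member in CPM (log axis), by compartment, where symbols are libraries 20, 21 and 23, and bars the mean ± SD. PPIA lies near 2507 CPM in each library, PPIC near 47.7 CPM, and PPIG has the widest spread, 61.5 to 108 CPM.

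Summed by compartment, the 3 cytosolic members took 3206 ± 35.3 CPM, the 2 ER members 444 ± 20.6 CPM, the 1 mitochondrial member 249.6 ± 8.81 CPM and the 3 nuclear members 355 ± 11.5 CPM (SD, n = 3). As shares of the counts of the 9 genes these were 75.3% ± 0.54 for the cytosol, 10.4% ± 0.50 for the ER, 5.87% ± 0.21 for the mitochondria and 8.35% ± 0.26 for the nucleus. The log2 ratio of summed counts was 2.85 ± 0.079 for the cytosol over the ER, 3.68 ± 0.042 over the mitochondria and 3.17 ± 0.054 over the nucleus, each positive in 3 of 3 libraries. These sums were not tested. The cytosolic lead remained without PPIA, though smaller, at 0.65 over the ER, 1.48 over the mitochondria and 0.97 over the nucleus.
The order among the other compartments rested on how members were summed. The ER exceeded the nucleus by 0.32 ± 0.031 over the members, but lay below it, at -0.51, when all listed isomerases of both compartments were summed. By medians over the members, the levels were 535 CPM for the cytosol, 222 CPM for the ER, 249.6 CPM for the mitochondria and 134 CPM for the nucleus, against 19.6 CPM over all 11424 genes with at least 10 pooled counts.

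Within a library, the members ran in the order PPIA, FKBP1A, PPIB, PPIF, FKBP4, FKBP3 and PPIH, PPIG, PPIC. Each gene was set over each other gene as the log2 ratio of counts, and given with the SD over the 3 libraries, and tested with limma in a fit of all genes over the same denominator. Of 36 pairs, 35 passed at a Benjamini-Hochberg adjusted p of 0.05. Most genes of the table differ from any given gene, and 86.5% of all tested genes passed against PPIG, 90.4% against PPIC, 97.0% against FKBP3, 97.3% against FKBP4, 97.5% against PPIH, 98.6% against PPIF, 99.4% against PPIB and 99.6% against FKBP1A, so the count of members is near the background. PPIA exceeded the next member, FKBP1A, by a log2 ratio of 2.23 ± 0.072, or 4.69-fold, and the last, PPIC, by 5.71 ± 0.18, or 52.4-fold, in 3 of 3 libraries.

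The remaining steps between neighbours were small. The log2 ratio of PPIB was -0.43 ± 0.043 over FKBP1A, lower in 3 of 3 libraries (limma adjusted p = 1.0e-09). PPIB lay above PPIF by 0.67 ± 0.11 (limma adjusted p = 2.7e-22). PPIF lay above FKBP4 by 0.61 ± 0.072 (limma adjusted p = 1.1e-09). FKBP3 and PPIH lay below FKBP4 by -0.26 ± 0.016 and -0.27 ± 0.062 (limma adjusted p = 0.015 and 0.014), calls lost without the mean-variance trend (limma adjusted p = 0.091 and 0.090), without library 21 (0.11 and 0.14) and without library 23 (0.11 and 0.11). PPIH over FKBP3 was the pair that did not pass, at -0.0047 ± 0.047 (limma adjusted p = 0.96), which does not show that the levels are equal. PPIG lay below PPIH by -0.74 ± 0.46 (limma adjusted p = 1.9e-11), a small p beside a wide spread over the libraries. Without the mean-variance trend the limma adjusted p of that pair was 0.019. Tested against a 1.5-fold difference, the pair did not pass (limma adjusted p = 0.067). PPIC lay below PPIG by -0.77 ± 0.24 (limma adjusted p = 0.022). The PPIC call did not pass once library 20 or library 21 was left out (limma adjusted p = 0.066 and 0.36). None of the other steps given here passed against a 1.5-fold difference either. For PPIB over PPIF, PPIF over FKBP4 and PPIC over PPIG the limma adjusted p was then 0.11, 0.43 and 0.34.

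These p-values take most of their weight from the spread of other genes, with 28.5 or more prior degrees of freedom against 2 from the libraries, and an exact sign-flip test of 3 libraries cannot go below 0.25. The order is in counts of 5′ tags, which the protocol does not tie to length. Divided by the length of the main annotated transcript, 5 called pairs turned round: PPIB then exceeded FKBP1A (log2 ratio 0.15), PPIC exceeded PPIG (1.44), PPIH and FKBP3 exceeded FKBP4 (2.05 and 0.89), and PPIF fell below PPIH (-0.67). PPIH then also exceeded FKBP3, by 1.16. PPIA stayed above each other member in that scale.

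**Figure D2:**
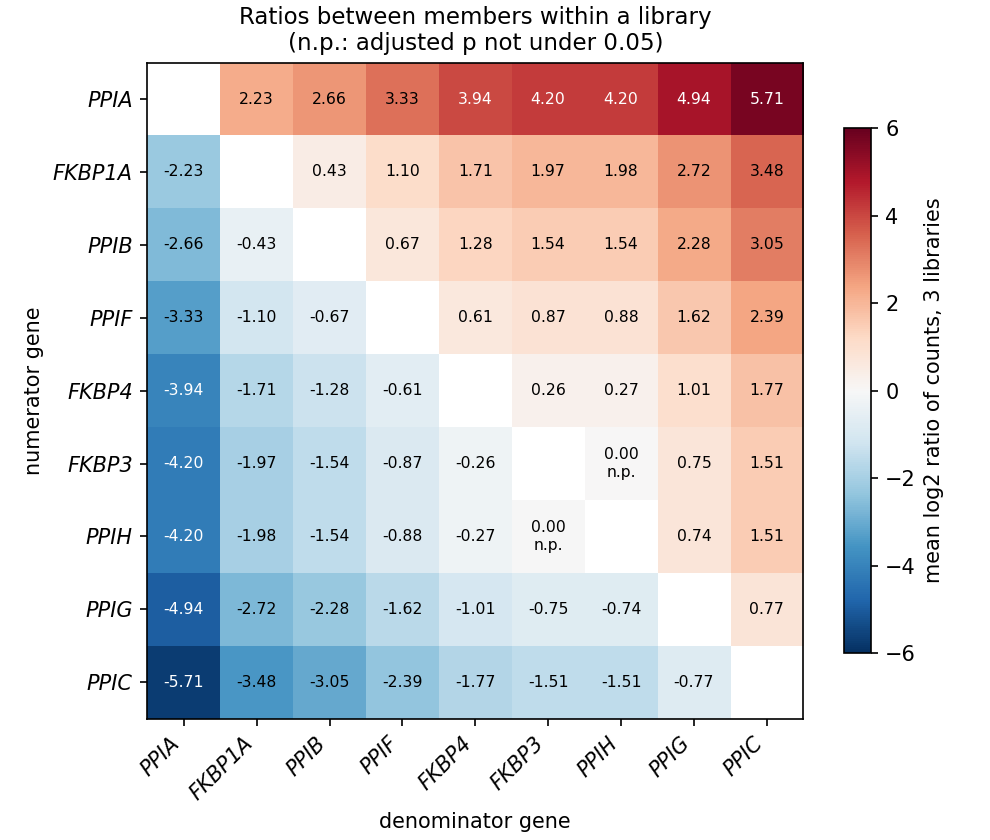
Mean log2 ratio of counts for each pair of members over 3 libraries, numerator in rows and denominator in columns, both ordered by mean CPM. The row of PPIA runs from 2.23 over FKBP1A to 5.71 over PPIC, and the 1 pair marked n.p. (not passed) is PPIH with FKBP3.

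Between the libraries, 1 of the 9 members differed beyond counting error. The test and the intervals below take each count as independent. That is not known, since a count may be a read or a molecule. PPIG had 159, 107 and 95 counts in libraries 20, 21 and 23. The 95% exact Poisson intervals, which cover counting error only, were 91.6 to 126 CPM, 65.9 to 97.2 CPM and 49.7 to 75.1 CPM, so that library 20 lay apart from library 23 and library 21 overlapped both. The log2 ratio of library 20 over library 23 was 0.81 (2-sided exact binomial test, adjusted p = 0.0089 over all genes and the 3 pairs). Library 20 over 21 was at 0.42 and library 21 over 23 at 0.39, neither past the threshold (exact binomial adjusted p = 0.57 and 0.74). Of all 11424 genes tested, 0.560% differed in at least 1 pair, 0.105% between libraries 20 and 21, 0.385% between 20 and 23 and 0.289% between 21 and 23. Leaving out a library cannot test this call, since it compares libraries 20 and 23 and needs both. The pair left without library 20 had an adjusted p of 0.67 and that left without library 23 of 0.90 (exact binomial test). Without library 21 the same comparison, adjusted over fewer tests, had an exact binomial adjusted p of 0.0057.

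The SD of PPIG over the libraries was 3.07 times the SD that counting alone gives. Of 5204 genes with at least 100 pooled counts, 0.826% had a ratio at or above that, and their median was 0.97. The other members lay between 0.52 for PPIH and 1.18 for FKBP4, with PPIA at 0.73, FKBP1A at 1.14 and PPIB at 0.92. PPIA therefore varied by 1.21% of its mean, PPIF by 3.53% and PPIB by 3.86%, close to the limit set by their counts. Scaled by spike totals in place of endogenous totals, PPIA also passed, with log2 ratios of -0.12 for library 20 over 23 and -0.15 for library 21 over 23 (exact binomial adjusted p = 0.026 and 0.0019). With endogenous totals these ratios were -0.034 and -0.0087, and neither passed. A change of totals shifts the ratios of all genes alike. With spike totals 250 of 11424 genes differed, against 64 with endogenous totals.

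**Figure D3:**
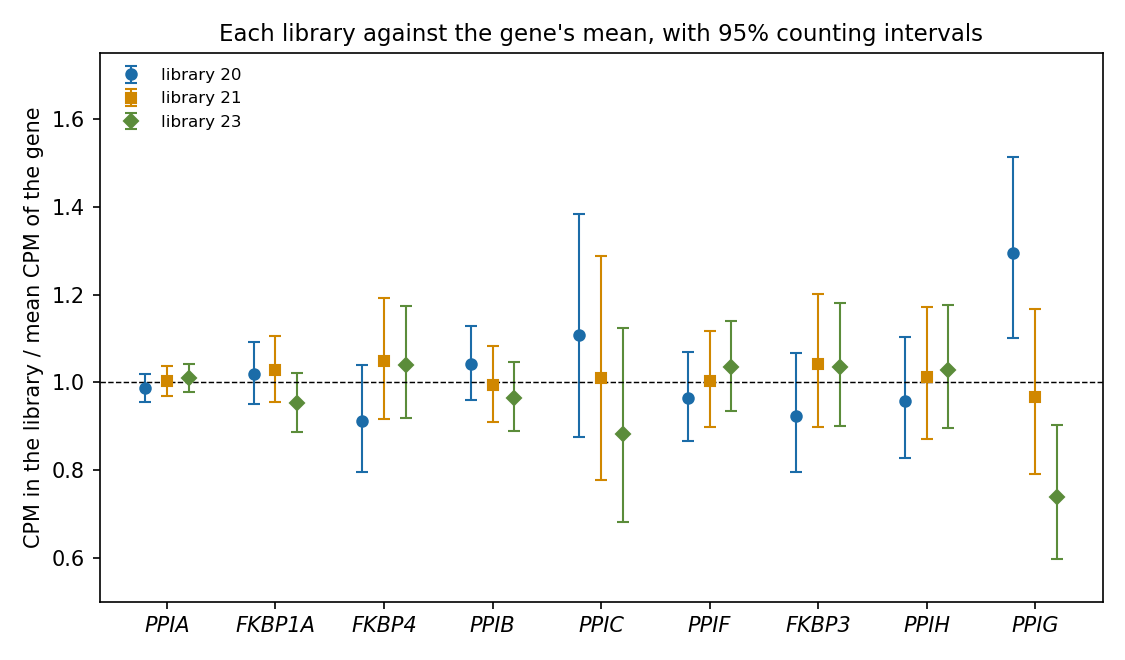
CPM of each member in libraries 20, 21 and 23 divided by the gene's mean over the libraries, with 95% exact Poisson intervals of the counts. The intervals of PPIG in library 20 (91.6 to 126 CPM) and library 23 (49.7 to 75.1 CPM) do not meet, while the 3 intervals of each other member overlap.

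The rest of the isomerase families lay well below PPIA. All 11 other cyclophilins were listed, 10 of them at 10 CPM or more on average, against 7850 of all 17595 endogenous genes. The median of these 11 cyclophilins was 55.98 CPM. Against PPIA 11 of 11 were lower in the limma fit, as were 99.4% of all tested genes. They were led by PPIL1, a spliceosomal cyclophilin, at 157 ± 7.23 CPM, which was above the 3 nuclear members on average, by PPIE, another spliceosomal cyclophilin, at 110.3 ± 12.6 CPM, and by PPID, cyclophilin 40, an HSP90 partner, at 98.9 ± 12.3 CPM. PPIL4 had 74.4 ± 4.25 CPM, and PPIL6 was the lowest, with 20 counts in all libraries together.

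Of 14 other FKBPs 13 were listed, 8 of them at 10 CPM or more on average, against 7850 of all 17595 endogenous genes. The median of the 14 FKBPs was 16.6 CPM with FKBP6, which was not listed, taken as 0. Against FKBP1A 12 of 12 tested were lower, as were 97.1% of all tested genes. FKBP2, a small ER isomerase, led with 127 ± 8.04 CPM. FKBP8, anchored in the outer mitochondrial membrane, had 48.6 ± 5.08 CPM. FKBP5, the HSP90 partner FKBP51, had 32.1 ± 1.76 CPM, and FKBP1B, the close relative of FKBP1A, had 5.68 ± 1.85 CPM. The collagen-related ER members FKBP10 and FKBP14 had 19.5 ± 0.65 and 20.2 ± 1.85 CPM. PIN4, a parvulin, of another isomerase family, was below PPIA, at 239.99 ± 7.17 CPM (SD, n = 3). Of these relatives, none of those that reached 10 pooled counts differed between libraries in the exact binomial test. Together with the 9 members the listed relatives took 0.569% ± 0.0061 of endogenous counts, of which the members alone took 0.425% ± 0.0030.

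**Figure D4:**
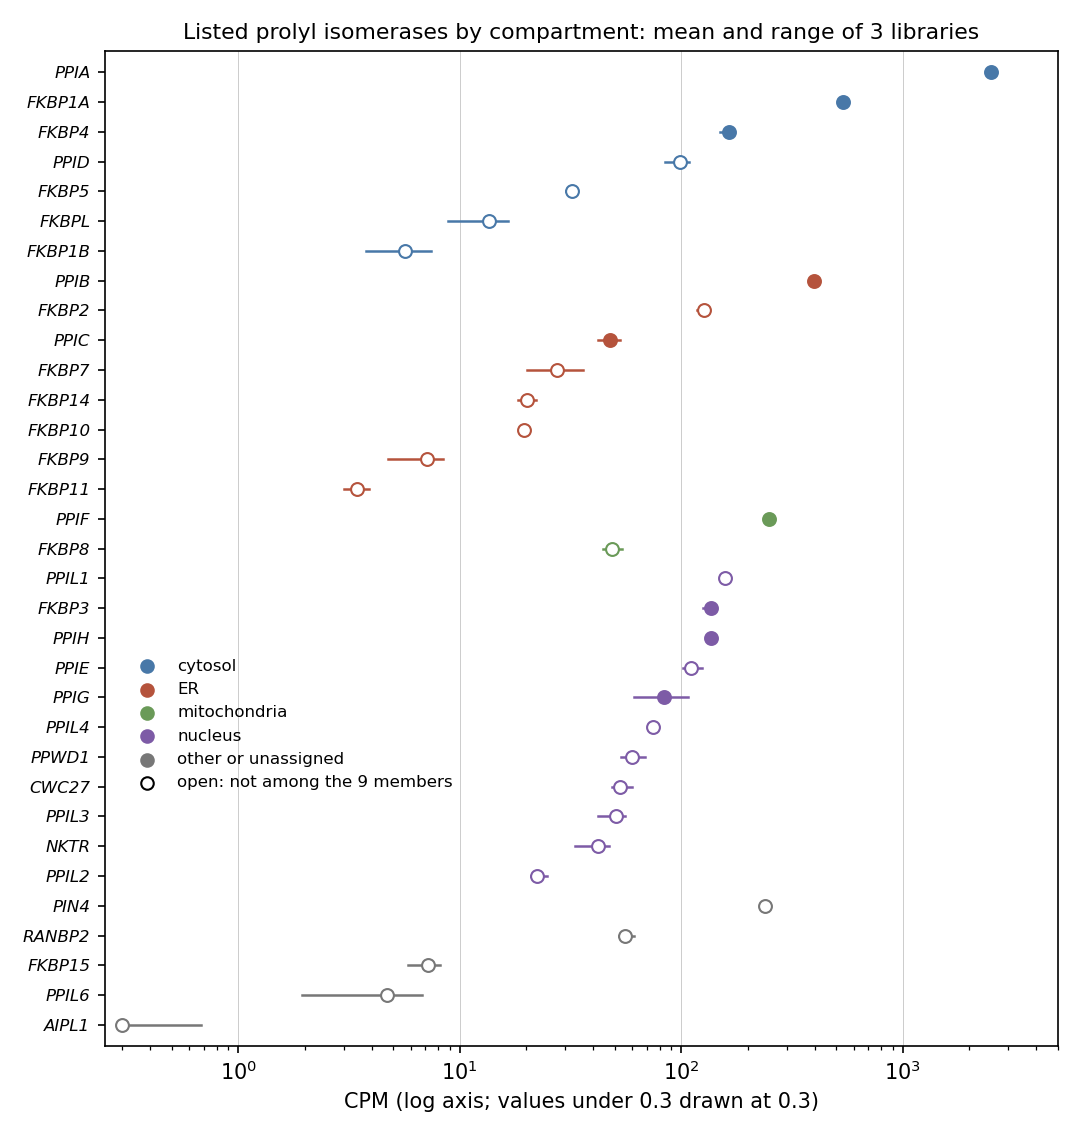
Mean CPM (log axis) of the 9 members and the listed prolyl isomerases reported here, with a line from the lowest to the highest of 3 libraries; filled circles are the 9 members and open circles their relatives, coloured by compartment. PPIA at 2507 CPM stands at the top, and the nuclear genes run from PPIL2 at 22.4 CPM to PPIL1 at 157 CPM.

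Genes of the complexes in which the members act were set over the member concerned. In the HSP90 machinery, 5 of 9 genes were higher than FKBP4 and 4 lower, while 8.30% of all tested genes were higher and 89.0% lower. HSP90AA1, the chaperone itself, exceeded FKBP4 by a log2 ratio of 3.26, and the co-chaperone gene STIP1 by 0.78, whereas CDC37, the kinase co-chaperone, was lower by -0.49 and FKBP5 by -2.34. AHSA1, an activator of the HSP90 ATPase, was above FKBP4 by 0.23 (limma adjusted p = 0.028).
Of the genes of calcineurin and of the mTOR complexes, 8 of 8 tested were lower than FKBP1A, as were 97.1% of all tested genes, so the count is near the background. The catalytic calcineurin gene PPP3CA had 34.96 ± 7.62 CPM, PPP3CB 20.3 ± 6.27 CPM, and MTOR 30.9 ± 1.89 CPM, while MLST8, a subunit of both mTOR complexes, had 122 ± 13.5 CPM.

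In the collagen-modifying machinery of the ER, 9 of 9 genes were lower than PPIB, as were 96.0% of all tested genes. P4HB, protein disulfide isomerase, came closest at 195 ± 6.89 CPM, a log2 ratio of -1.02. The partners of PPIB in its complex were lower still, CRTAP at 75.98 ± 12.8 CPM and P3H1, listed as LEPRE1, at 22.8 ± 4.34 CPM.
Of 8 tri-snRNP genes, 2 were higher than PPIH and 6 lower, while 10.2% of all tested genes were higher and 87.3% lower. SNU13, listed as NHP2L1, exceeded PPIH by 2.49, and PRPF8, the central spliceosome scaffold, by 0.19 (limma adjusted p = 0.019). The direct partners of PPIH, PRPF3 and PRPF4, were lower by -1.78 and -1.46.

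Of 10 genes of the mitochondrial pore and matrix, 8 were higher than PPIF and 2 lower, while 5.38% of all tested genes were higher and 93.2% lower. The ADP/ATP carrier gene SLC25A5 exceeded PPIF by a log2 ratio of 2.83, HSPD1, the matrix chaperonin, by 2.49, and ATP5O, the ATP synthase subunit to which cyclophilin D binds, by 1.70. SLC25A4 was lower by -1.02 and TSPO by -0.23.
Of 5 nuclear partners of FKBP3, 3 were higher and 2 lower, while 9.93% of all tested genes were higher and 87.1% lower. HDAC1 and HDAC2 exceeded FKBP3 by 1.09 and 1.11, and the transcription factor gene YY1 lay below it by -0.57. Of the receptors bound by PPIA or FKBP1A, 6 of 8 were listed. All of them were set over PPIA, also those bound by FKBP1A. Each was lower than PPIA, as were 99.4% of all tested genes, so this count too is near the background. BSG, or CD147, the surface receptor of secreted cyclophilins, had 457 ± 9.37 CPM, and TGFBR1, whose kinase binds FKBP1A, had 16.8 ± 1.75 CPM.

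Genes outside the families with the most similar level in every library were found by Euclidean distance of log2(CPM + 0.5) over the 3 libraries. They were RPL8 for PPIA, HMGN3 for PPIB, COMMD7 for PPIC, MRPL33 for PPIF, ZCRB1 for PPIH, NDUFA12 for FKBP1A, RPRD1A for FKBP3 and CCNG1 for FKBP4, at distances of 0.018 to 0.058. The nearest gene to PPIG was FAM133B, at a distance of 0.21, with 95.5, 78.9 and 66.6 CPM in libraries 20, 21 and 23. It was picked by these same values, so an order of libraries shared with PPIG is favoured by the choice. With 3 libraries of 1 group this is a likeness of level.

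Copies and overlaps limit some rows. GENCODE v29 names 88 pseudogenes of PPIA, of which 4 were listed. PPIAP22 had 59, 48 and 71 counts, 1.63% of the counts of PPIA, and the other 3 had 1 count each. With them PPIA would stand at 2549 ± 32.2 CPM. FKBP1C, a retrogene of FKBP1A, had 3 counts. How reads were split among such copies is not given in the sources used here. By the same annotation, SNX22 overlaps PPIB on the opposite strand with 5 to 9 counts a library, PRPF39 overlaps FKBP3 with 36 to 42, SNX24 overlaps PPIC with 13 to 22, and SDCBP2-AS1 overlaps FKBP1A with 4. The use of strand in counting is not known, so reads of such partners cannot be told apart. On the same strand, the protein-coding gene AL136531.2 and the microRNA gene MIR6869 overlap FKBP1A, and neither was listed. Strand would not separate their reads from those of FKBP1A.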

How the data were processed

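Gene counts were deposited by the authors as whole numbers, with no normalization, for 3 libraries. The submitters' processing notes name cutadapt 1.2.1, STAR 2.4.0a and hg19 (GRCh37). Counting tool, annotation, strand and handling of molecular identifiers: not given in the sources used here. Whether a count is a read or a molecule is therefore unknown.

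Levels are counts per 1000000 endogenous counts, leaving out 80 spike rows (3.49% to 3.85% of counts). Ratios between genes are log2 ratios per library with a pseudocount of 0.5, tested with limma 3.58.1 (moderated one-sample test, trended prior, 2-sided) over the 11424 genes that reached 10 pooled counts, and adjusted by Benjamini-Hochberg at 0.05. The libraries were compared by exact binomial tests (2-sided, given the endogenous totals), adjusted over all genes and 3 pairs. Alternatives used edgeR 4.0.16 and, for scaling, DESeq2 1.42.0. The members and lists were chosen with earlier results of these data known.

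Named genes are the 9 members, other isomerases, the 4 highest genes of each list and the nearest gene of each member. Some of these genes are counted in their lists but are not reported here. AHSA1, CDC37, P3H1, PRPF3, PRPF4, SLC25A4, TSPO, PAX2, the copies and the overlapping genes fall outside that rule, and their values were known when they were picked. P3H1 and SNU13 were matched by older symbols. Transcript lengths, pseudogenes and overlaps came by name from GENCODE v29 (GRCh38), with a length for 91.7% of tested genes, and promoters from RefSeq (GRCh38.p14). Scripts ran in R 4.3.3 and Python 3.11.15 (pandas 2.3.3, scipy 1.17.1, numpy 2.4.6, matplotlib 3.10.9).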

Additional observations from a re-analysis of the deposited data

How the results depend on the processing

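Of 36 ratios between members, 35 passed with a pseudocount of 1, with no minimum count, with edgeR and, as an alternative chosen after seeing the data, with a robust prior. The number was 33 without the trend, 27 against a 1.5-fold difference and 32 to 34 with a library left out. Per kilobase of transcript 36 passed, and the sign turned for PPIB over FKBP1A (0.15), PPIC over PPIG (1.44), PPIF over PPIH (-0.67), PPIH over FKBP3 (1.16), PPIH over FKBP4 (2.05) and FKBP3 over FKBP4 (0.89), since lengths differ between genes.

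The number of members that differed between libraries was 2 with spike totals and 0 to 1 with a library left out. The adjusted p of PPIG between libraries 20 and 23 ran from 0.0057 to 0.0195 under the alternatives that keep both.

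With a library left out, the log2 ratio of summed counts was 2.82 to 2.90 for cytosol over ER and 3.66 to 3.70 for cytosol over mitochondria. It was 3.14 to 3.20 for cytosol over nucleus and 0.77 to 0.89 for ER over mitochondria. For ER over nucleus it was 0.30 to 0.33, and for mitochondria over nucleus -0.56 to -0.47. By medians over members, the log2 ratio was 1.27 for cytosol over ER, 1.10 for cytosol over mitochondria, 1.99 for cytosol over nucleus, -0.17 for ER over mitochondria, 0.72 for ER over nucleus and 0.89 for mitochondria over nucleus. With all listed isomerases these were, in the same order, 2.395, 3.51, 1.88, 1.12, -0.51 and -1.63. Without PPIA the cytosol stood at 0.65 over the ER, 1.48 over the mitochondria and 0.97 over the nucleus. Without PPIB, cytosol over ER was 6.07, ER over mitochondria -2.39 and ER over nucleus -2.89. Without FKBP3, cytosol over nucleus was 3.87, ER over nucleus 1.02 and mitochondria over nucleus 0.19. These changes follow from the genes summed.

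Genes were paired within each library, but no pairing of samples between groups was possible, because there is a single group. The columns carry no replicate number. The 3 libraries of 1 group limit the precision. PPIC rests on 64 to 78 counts a library, and its differences between libraries were not detectable at this depth.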
